A study of Drosophila melanogaster with 9 samples.

Results

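The expression levels described here come from sorted body-wall cells of Control larvae of Drosophila melanogaster, measured on 3 Affymetrix arrays out of the 9 in the series. Control larvae carried 1 copy of the driver GAL4[21-7] and UAS-mCD8:GFP, a membrane-bound green fluorescent protein, and no misexpressed transcription factor. The driver is labelled as active in every class of dendritic arborization (da) neuron, and the label's name for the cells rests on it. Each array holds RNA pooled from 80 body walls. These came from larvae reared at 25 °C to the wandering stage of the third instar, protease was used to free the cells, and those with mCD8:GFP were picked out, with magnetic beads according to the design text. The 3 samples are labelled as biological replicates, and each array is called here by its replicate number. The other 6 arrays, of cells that misexpressed Abrupt or Knot, were not analysed here. After removal of control probe sets, 18769 probe sets remained, and those with a single gene symbol gave levels for 11982 genes.

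The da neurons are the sensory neurons that spread their dendrites under the larval epidermis. Their classes differ in dendrite shape and in what they sense: the class IV cells, for example, are nociceptors and use channel subunits of the pickpocket (ppk) family. Around them in the body wall lie the epidermis that secretes the cuticle, the somatic muscles, tracheae, glia of the peripheral nerves, and blood cells (hemocytes), mostly plasmatocytes, which engulf debris and secrete basement membrane. Any of these can be carried along when a dissected body wall is digested and sorted.

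Levels are log2 values from RMA, a method that corrects background, normalizes arrays and summarises the probes of a probe set, so that 1 unit is a 2-fold difference in array signal. Probe sets differ in how well they bind their transcript, and a rank by level is therefore a rank of signal and not of transcript number. To mark a signal near background, 93 genes expected to be silent in these cells were used, namely 56 odorant receptors and 37 genes of the eggshell and of seminal fluid. The 95th percentile of their mean levels, 2.09, is called the level line below. The median of the silent genes was 0.94, and 5 of the 93 lay above the line. The exception farthest above it was Acp95EF, named as a male accessory gland protein, at 5.28, 4.29 and 5.77 on arrays 1, 2 and 3.

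Of the 11982 named genes, 6029 (50.3%) had a mean above the level line and 4716 (39.4%) were above the line of every array. The counts given below for each list are to be read beside these shares. The quartiles of the mean levels were 1.11, 2.11 and 4.33. The top 10% of genes, called high here, began at a mean of 6.21 and held 1199 genes. Only 74 genes reached a mean of 10. The arrays correlated across probe sets with Pearson's r between 0.930 and 0.944, a description over features that share arrays. Array 2 had the fewest genes above its own line, 5109, against 5956 on array 1 and 6362 on array 3. The 95th percentile of the silent genes was also highest on array 2, at 2.50, against 2.07 on array 1 and 1.88 on array 3.

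**Figure D1:**
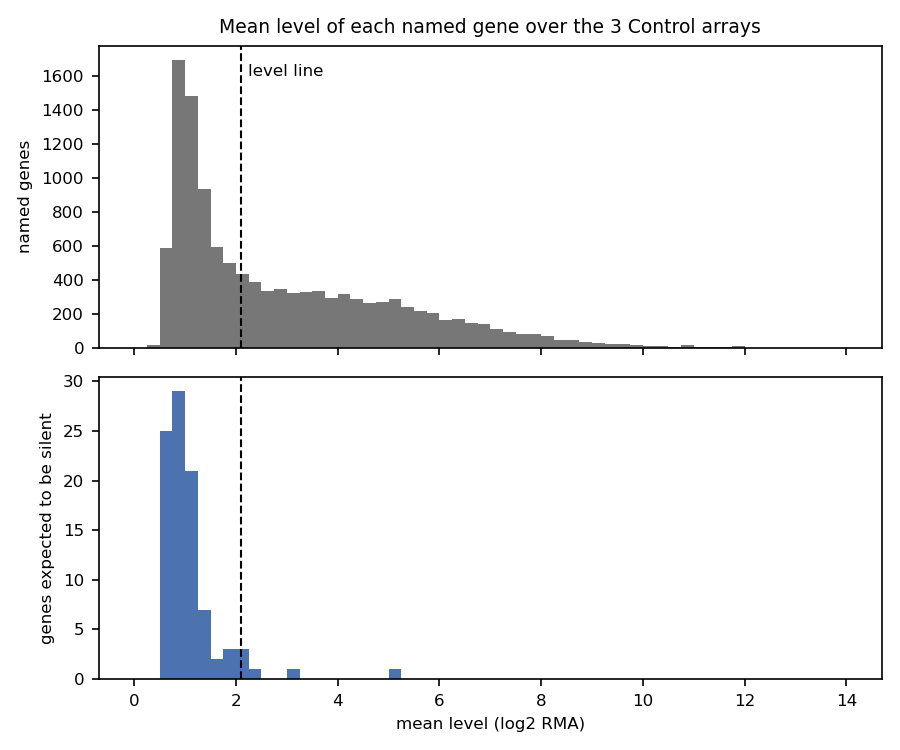
Histograms of the mean level (log2 RMA, x axis) over the 3 Control arrays; the y axes give numbers of genes. The upper panel holds the 11982 named genes and the lower panel the 93 genes expected to be silent. The dashed line at 2.09 is the level line, with 6029 named genes above it and most of the silent genes near 0.94.

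The highest signals belonged to ribosomal proteins, actin regulators, chaperones, a cuticle protein and a few genes of other kinds. Cytosolic ribosomal proteins made up 10 of the 25 genes with the highest mean and 27 of the first 100. Only 30 of the 81 listed genes of this class were measured, so the ranking lacks the others. The first rank went to CG5953, a gene without a given name, at 13.60, 13.68 and 13.67 on arrays 1, 2 and 3. A second probe set of CG5953 was at 6.85, 7.27 and 6.63, so the rank belongs to the brighter probe set. The suffix of both marks them as able to match several transcripts. RpL41 followed at 13.02, 12.65 and 13.31, and RpL15 at 12.71, 12.54 and 12.67, both from probe sets with the same suffix. All 3 arrays placed these genes far above the level line and within 0.66 of each other.

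Among the 25 highest were also Arc1, which encodes a Gag-like protein that forms capsids and carries RNA, at 11.61, 12.08 and 11.90, and Hsp27, a small heat shock protein, at 12.04, 11.77 and 11.47. The actin regulators tsr (cofilin), cib (a thymosin-beta protein) and chic (profilin) had mean levels of 11.65, 11.56 and 11.29. Other genes of general cell function in the group were pAbp, the poly(A)-binding protein, sesB, the mitochondrial ADP/ATP carrier, eEF5, a translation factor, Hrb27C, an RNA-binding protein of the hnRNP type, and Hsc70-4, the constitutive cytosolic chaperone. Signals were steady at this height. The median spread (highest minus lowest array) of the first 100 genes was 0.49, and the largest, 1.95, was that of Glt, the basement membrane protein glutactin, singled out after its values were seen. Within the first 25 the largest spread was that of regucalcin, named after a calcium-binding protein of mammals, at 12.58, 12.16 and 10.82, lowest on array 3.

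The neuronal markers were above background but not among the highest signals. The vesicle protein nSyb, neuronal synaptobrevin, was at 6.78, 6.73 and 6.97 and ranked 819 of 11982. The pan-neuronal RNA-binding protein elav was at 6.46, 6.06 and 6.29 (rank 1160). The nociceptor channel subunit ppk26 was at 6.14, 7.39 and 7.37 (rank 732). Each of these lay above the line on every array and among the high genes, and ppk26 was lower on array 1 than on the other two.

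The subunit ppk, the partner of ppk26 in class IV neurons, behaved differently. Its levels were 1.99, 1.64 and 4.84, so that it was near background on arrays 1 and 2 and above the line on array 3 alone. Its mean of 2.82 ± 1.76 (SD, n = 3) therefore rests on array 3. Elsewhere among the nociceptor and mechanosensory channels signals were mostly low: 6 of 21 measured genes had a mean above the line, 2 were above it on all arrays and 15 were near background. Without array 3 the number with a mean above the line was 3, and without array 1 or array 2 it was 7. The TRPN channel nompC was at 1.41, 1.18 and 0.79, and the acid-sensing family member rpk at 0.80, 0.56 and 0.72. The TRPA channel pain, required for nociception, was at 1.35, 1.64 and 3.72, and like ppk it was highest on array 3. The melastatin-type channel Trpm was at 2.14, 3.67 and 2.38.

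All 11 measured genes of the list of neuronal RNA-binding and cytoskeletal proteins had means above the line, 10 of them on every array, with a median level of 5.88 against 2.11 over all named genes. The cell adhesion molecule Nrg, neuroglian, was at 8.01, 8.10 and 7.76, and the microtubule protein tau at 5.69, 6.06 and 6.75. The MAP1B homologue futsch was at 5.05, 5.72 and 6.85, though its other probe sets averaged 1.65 and 2.43. Both tau and futsch were highest on array 3 and lowest on array 1. The amyloid precursor homologue Appl was at 5.18, 5.41 and 6.42, in the same order. In contrast, CadN, N-cadherin, was at 6.07, 2.42 and 5.78, and the elav relative fne at 5.42, 3.20 and 4.95. Both were low on array 2 alone.

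Of 27 measured genes for synaptic vesicles and transmitter release, 20 had means above the line and 16 were above it on all arrays. The highest was cpx, complexin, a regulator of vesicle fusion, at 8.90, 9.34 and 8.77 (rank 159). The kinesin unc-104, which carries synaptic vesicle precursors along the axon, was at 7.20, 7.60 and 8.49. These 2 genes, nSyb and Frq1, a frequenin-type calcium sensor at 6.87, 5.45 and 6.71, were the high members of the list. The transmitter genes covered acetylcholine, glutamate, GABA and the monoamines. ChAT, which makes acetylcholine, was at 4.68, 4.04 and 4.87, and VAChT, which loads it into vesicles, at 3.85, 3.43 and 4.89. The vesicular transporters of glutamate and of monoamines, VGlut and Vmat, averaged 0.88 and 1.48, and Gad1, which makes GABA, averaged 0.69, all below the line. The serotonin transporter SerT was at 0.87, 1.20 and 3.02, above the line only on array 3, and the dopamine transporter DAT was at 2.10, 1.82 and 3.09, above it on arrays 1 and 3. ChAT, VAChT and DAT lie outside the rule for naming genes and were chosen after their values were seen.

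Ion channels of excitability had a lower median, 2.19, with 14 of 25 (56.0%) above the line, near the 50.3% of all named genes. Above it on all arrays were 8 of the 25, against 39.4% of all named genes. The sodium pump subunit nrv2, nervana 2, was the only high member and the steadiest, at 7.76, 7.74 and 7.74; it is also a septate junction protein and marks glia. The hyperpolarization-activated channel Ih was at 5.42, 6.60 and 6.05, and the potassium channel Sh, Shaker, at 5.06, 5.27 and 5.11. Both were above the line throughout, though for Sh this rests on its brightest probe set. The other probe sets of Sh averaged between 0.74 and 1.85, below the line. The voltage-gated sodium channel para was at 3.79, 4.87 and 2.45, and the presynaptic calcium channel cac at 2.07, 1.65 and 3.63. They varied in opposite directions, with para lowest and cac highest on array 3. The calcium channel genes Ca-alpha1D and Ca-alpha1T and the leak channel gene na averaged 0.97, 1.65 and 1.20.

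Of 27 genes for neuropeptides and their processing, 10 were above the line, 8 of them on every array. The dense-core vesicle protein IA-2 was at 9.15, 8.71 and 10.16 (rank 121), though its other 2 probe sets averaged 3.33 and 1.06. The processing enzymes Phm (peptide amidation), svr (carboxypeptidase D) and amon (the prohormone convertase) averaged 6.13, 5.82 and 5.13, and 7B2, a convertase chaperone, was at 4.87, 4.68 and 5.46. The peptide precursor Nplp2 was at 8.51, 7.71 and 7.07. Many other precursors were near background, among them AstC, CCAP, Lk, Crz and Dh44, with means between 0.70 and 0.89. Nplp1 was at 4.21, 1.01 and 5.04, that is, near background on array 2 alone. Nplp4 was at 0.90, 3.53 and 2.67, near background on array 1 alone.

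Transcription factors that shape da neurons were above the line in 17 of 27 cases, 15 of them on every array. The zinc-finger gene jim was highest at 8.78, 8.71 and 8.37 (rank 211), followed by lola (7.30, 7.13 and 6.54), a BTB factor of axon guidance with 15 probe sets, and the POU factor vvl (6.73, 6.83 and 7.30). The ecdysone receptor partner usp was at 6.13, 6.38 and 6.60. On the brightest probe sets these signals were steady, with no array more than 0.8 from another. Another probe set of lola was less steady, at 6.47, 4.34 and 5.08, and the other of vvl averaged 2.82. The class selector ct, cut, which is graded between classes, averaged 4.28 ± 0.25 (SD, n = 3); it was chosen after its values were seen. For kn, knot, the class IV selector, the brighter probe set was at 1.00, 3.75 and 3.53 and the other averaged 0.97, so the gene was near background on array 1 and above it on arrays 2 and 3. The gene pros, prospero, was at 6.88, 4.38 and 6.68, and sens-2 at 2.45, 3.60 and 4.86. The proneural and precursor genes ase and sens averaged 1.00 and 1.10, and Poxn, which specifies chemosensory organs, 1.07.

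The adhesion and guidance list was better represented, with 27 of 32 genes above the line, 24 on every array and 10 high. Its highest members were the laminin chains LanB1 (9.71, 9.49 and 8.51), LanB2 (9.11, 8.78 and 8.85) and LanA (9.06, 8.30 and 8.53), the extracellular partners of dendrites in the basement membrane. The integrin beta subunit mys averaged 7.62, and Ten-m, the teneurin, was at 7.60, 7.09 and 7.12. Several guidance genes were unsteady. Sema1a was at 2.21, 5.45 and 4.22, the netrin receptor fra at 4.01, 2.83 and 5.92, the leucine-rich repeat protein caps at 5.43, 2.35 and 3.84, and Dscam2 at 4.78, 2.24 and 1.52. No array was the low one for all of these. A spread of at least 2, a 4-fold difference between arrays, occurred in 7 of the 32 genes, against 8.87% of all named genes and 16.3% of those above the line.

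**Figure D2:**
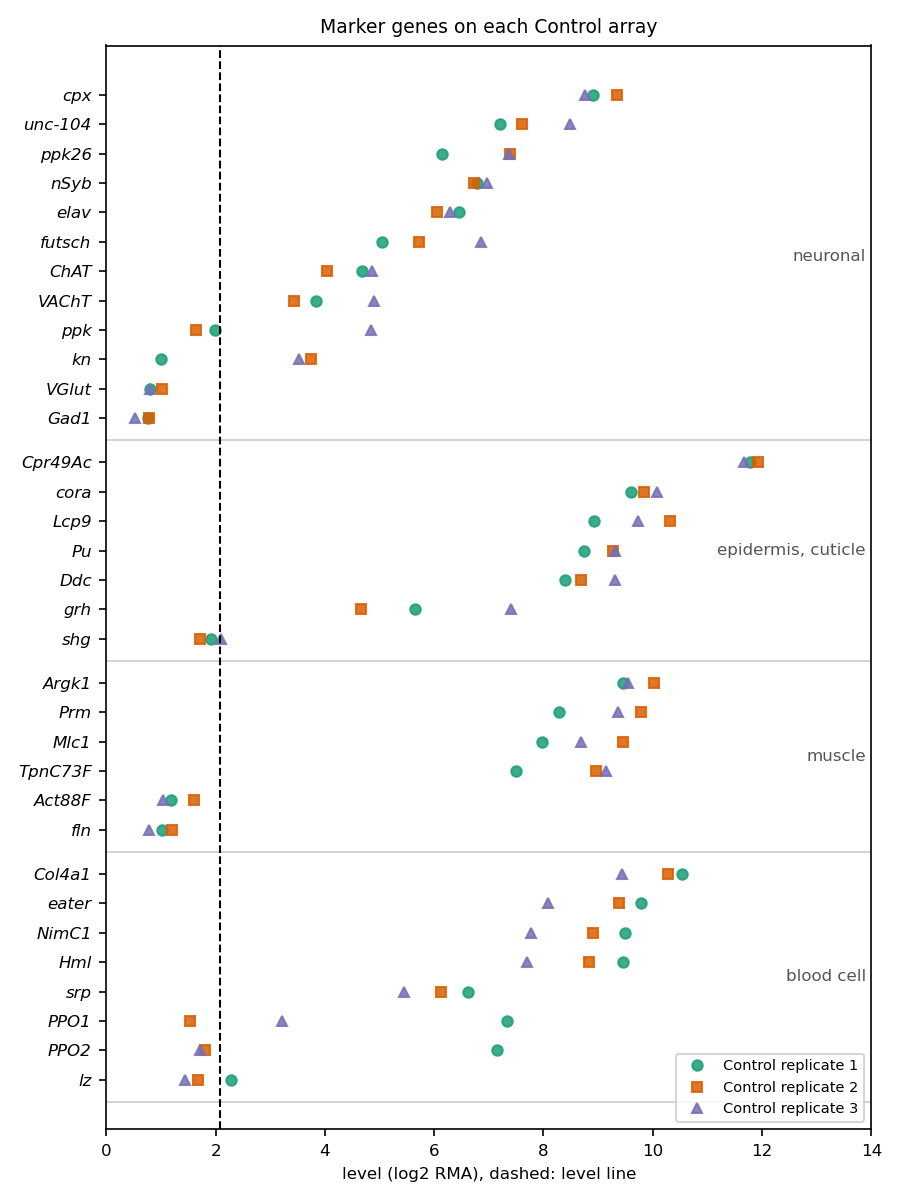
Levels (x axis, log2 RMA) of marker genes (y axis) on each Control array, in 4 blocks. Symbols give the replicate and the dashed line is the level line at 2.09. Plasmatocyte genes such as Hml lie lowest on array 3, muscle genes lowest on array 1, and ppk, PPO1 and PPO2 lie above the line on only some arrays.

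Signals of muscle genes were high. Of 26 measured muscle genes 19 had means above the line, 18 were above it on all arrays and 14 were high. The arginine kinase Argk1, which buffers ATP, was at 9.46, 10.02 and 9.54 (rank 96). Paramyosin, Prm, of the thick filament, was at 8.28, 9.78 and 9.37, and the alkali myosin light chain Mlc1 at 7.97, 9.46 and 8.69. The troponin C gene TpnC73F was at 7.49, 8.97 and 9.14, though its other probe set averaged 1.06. The titin-like projectin, bt, was at 3.30, 5.92 and 7.02. In each of these 5 genes array 1 was the lowest. Genes of adult muscle were near background: the actins Act88F and Act79B averaged 1.28 and 1.38, and flightin, fln, was at 1.03, 1.21 and 0.78. The regulatory light chain Mlc2 averaged 1.38 and the sodium-calcium exchanger Calx 0.77.

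Epidermal genes were present at a wide range of levels. Of 24 genes of the epidermis and of septate junctions, 18 were above the line, 16 on every array, and 7 were high. The band 4.1 protein cora, of septate junctions, was at 9.61, 9.84 and 10.08 (rank 83), and the scaffold dlg1 at 8.95, 8.51 and 9.23. The epidermal transcription factor grh, grainy head, was at 5.65, 4.66 and 7.40. This probe set of grh was lowest on array 2 and highest on array 3. The other probe set of grh was at 2.20, 4.13 and 2.27, highest on array 2. The apical determinant crb was highest on array 3, at 2.91, 3.25 and 5.30. E-cadherin, shg, had a mean near background, with 1.92, 1.71 and 2.09. The septate junction claudin kune (4.99, 2.60 and 4.98) and neurexin IV, Nrx-IV (4.62, 2.73 and 5.38), were lowest on array 2.

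Structural cuticle proteins ranged from near background to the highest signals. Of 66, 34 had means above the line, 24 on all arrays, and 10 were high; the share above the line, 51.5%, was near the 50.3% of all named genes. Cpr49Ac was at 11.79, 11.92 and 11.66 and ranked 10 among all named genes. The larval cuticle proteins Lcp9, at 8.93, 10.31 and 9.74, and Lcp65Af, at 8.50, 8.62 and 9.38, were high on every array. TwdlE was at 9.02, 8.21 and 6.34 and was lowest on array 3. By contrast Cpr66Cb was at 5.38, 0.88 and 0.98, and Cpr49Ag at 1.93, 0.69 and 5.26, each with signal on a single array. Cpr78Ca was at 3.48, 7.35 and 6.06, lowest on array 1. TwdlT, Ccp84Ag, Cpr76Bd and Cpr50Ca were near background, with means between 0.65 and 0.86.

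Enzymes that harden cuticle and make chitin had a median of 5.98, with 19 of 23 above the line, 18 on every array and 10 high. Pu, GTP cyclohydrolase, was at 8.75, 9.27 and 9.31, and Ddc, dopa decarboxylase, at 8.39, 8.68 and 9.31. The chitin deacetylase serp was at 8.45, 9.05 and 8.99. These 3 genes were lowest on array 1. Yet ple, tyrosine hydroxylase, which acts before Ddc in the same pathway, was at 0.49, 0.79 and 0.89, near background on every array. The gene stw, straw, which encodes the laccase that cross-links cuticle, was at 3.17, 3.11 and 6.26. Its other probe sets averaged 0.79 and 0.86. The chitin synthase kkv was at 6.25, 4.61 and 7.24. Both were highest on array 3.

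Signals of plasmatocyte genes were high too. Of 37 measured plasmatocyte genes, 29 had means above the line, 28 were above it on every array and 22 were high, with a median of 6.96. The collagen IV chain Col4a1 was at 10.54, 10.27 and 9.44 (rank 71). The phagocytosis receptor eater was at 9.78, 9.38 and 8.08, and NimC1, another Nimrod-family receptor, at 9.50, 8.91 and 7.76. Hemolectin, Hml, the usual driver gene for plasmatocytes, was at 9.46, 8.83 and 7.70. The peroxidase Pxn was at 9.28, 8.75 and 7.15, though its other probe set averaged 1.58. All 5 were highest on array 1 and lowest on array 3, as was the hematopoietic GATA factor srp at 6.62, 6.13 and 5.46. The largest spread in the list was that of NimB4, at 8.47, 7.93 and 5.55. The ferritin chain Fer1HCH, a secreted iron store, was steady at 8.72, 8.78 and 8.69. Near background were the early glial and hemocyte factors gcm and gcm2, at means of 1.03 and 1.11, the scavenger receptor Sr-CII at 0.97 and the cytokine Gbp1 at 1.18. Hml, NimC1, srp and Fer1HCH lie outside the rule for naming genes and were chosen after their values were seen.

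Markers of the other blood-cell types were less even. The crystal-cell prophenoloxidases PPO1 and PPO2 were first and the third in spread among all named genes above the line. PPO1 was at 7.34, 1.53 and 3.22, and PPO2 at 7.14, 1.81 and 1.72. Both were high on array 1, while PPO2 was near background on arrays 2 and 3 and PPO1 on array 2. The crystal-cell factor lz, lozenge, was at 2.27, 1.68 and 1.43, with array 1 the only one above the line. The lamellocyte surface marker atilla was at 1.86, 5.17 and 4.10, low on array 1 alone. PPO3, the lamellocyte prophenoloxidase, averaged 1.73. Of the 11 genes of the crystal-cell and lamellocyte list 7 had means above the line and 3 were above it on all arrays. Those 3, cher (filamin, 8.27, 8.88 and 8.86), msn (a Ste20 kinase, 7.78, 7.09 and 8.25) and mys, act in many cell types.

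Further tissues were checked in the same way. Of 26 fat body genes 18 had means above the line (69.2%, against 50.3% of all named genes), 13 on every array. The fat body storage protein Lsp2 was at 2.50, 5.49 and 4.27 and the storage protein receptor gene Fbp1 at 5.26, 5.41 and 3.96, while the yolk proteins Yp1, Yp2 and Yp3, of adult females, averaged between 1.03 and 1.27. Pepck1, of gluconeogenesis, was at 8.18, 9.66 and 9.07, and the lipid droplet gene Lsd-2 at 9.10, 8.11 and 8.11. Of 20 glial genes 14 had means above the line (70.0%), 10 on every array. The gap-junction gene Inx2, at 9.32, 9.68 and 9.59, and glutamine synthetase Gs2, at a mean of 8.60, led that list, and both act in other tissues too. The defining glial factor repo averaged 1.63, below the line, and the astrocyte marker alrm was at 4.04, 1.37 and 1.23, with signal on array 1 alone.

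The tracheal list had 10 of 15 genes (66.7%) above the line, all of them on every array, against 50.3% of all named genes. Its cuticle protein Gasp was at 5.76, 7.37 and 7.27, and the FGF receptor btl was near background at a mean of 1.03. The short oenocyte list had 4 of 7 (57.1%) above the line, near the 50.3% of all named genes. Cyp4g1, of hydrocarbon synthesis, was among them at 4.06, 7.90 and 6.30. Proliferation genes had 17 of 21 above the line and 11 on every array but only 1 high member, the histone variant His2Av at a mean of 8.13. PCNA averaged 5.31 and Mcm2 1.21. Salivary gland and gut genes were nearly all near background, 19 of 20, with Sgs4, a glue protein, the exception at 2.03, 3.05 and 2.61. Of 13 sex-biased and dosage genes 3 had means above the line, Sxl and tra at 4.65 and 4.59 and dsx at 2.11, just above it. The number of cells of a type and the RNA per cell cannot be told apart in such bulk samples, and neither the sort's purity nor the source cell of a signal was measured. Called high were 22 of 37 plasmatocyte, 14 of 26 muscle, 7 of 24 epidermal and septate junction and 10 of 66 structural cuticle genes. Among all named genes 1199 of 11982 were high. The levels are given as those of sorted body-wall cells and not of da neurons alone.

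Most genes that respond to dissociation and heat were high. All 17 measured members of the heat shock and dissociation list had means above the line, 15 on every array, and 13 were high, with a median of 8.88. Hsp26 was at 10.12, 10.11 and 10.33, and the inducible Hsp68 at 10.31, 10.30 and 9.74. The immediate-early gene Jra, the fly Jun, was at 7.47, 5.89 and 5.58, and Gadd45, a stress-response gene, at 4.17, 1.94 and 1.84. Hsp26 and Hsp68 differed by less than 0.6 between arrays, whereas Jra and Gadd45 stood highest on array 1. All of the 30 measured ribosomal protein genes, of 81 listed, were high, with a median of 10.85. All 33 measured genes of the respiratory chain and ATP synthase were above the line, with 23 high. Of 19 translation and housekeeping genes 18 were above the line; the exception was a tubulin, alphaTub84D, at a mean of 1.76. The immune list had 8 of 22 above the line, and among these the antifungal peptide Drs, drosomycin, was at 6.44, 8.48 and 6.74, highest on array 2, and the related Drsl5 was steady at 6.24, 6.23 and 6.48. Defensin, Def, averaged 0.93.

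The gene lists shifted together on particular arrays. For each list the deviation of every gene above the line from its own 3-array mean was averaged per array. Of all 6029 named genes above the line, 1750 were lowest on array 1, 2648 on array 2 and 1631 on array 3. Plasmatocyte genes deviated by 0.42, 0.15 and -0.56 on arrays 1, 2 and 3, and 24 of 29 were lowest on array 3. Muscle genes deviated by -0.56, 0.29 and 0.27, and 16 of 19 were lowest on array 1. Structural cuticle proteins deviated by -0.40, 0.19 and 0.21, with 19 of 34 lowest on array 1. Array 1 was thus the high array for plasmatocyte genes and the low array for muscle and structural cuticle genes.

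Several neuronal lists leaned to array 3. Synaptic genes deviated by -0.20, -0.18 and 0.38, with 12 of 20 highest on array 3, and the neuronal RNA-binding and cytoskeletal genes by 0.06, -0.51 and 0.45, with 6 of 11 highest there. The 4 markers elav, nSyb, ppk and ppk26 deviated by -0.38, -0.27 and 0.65, a value carried largely by ppk. Excitability channels did not share this, with 0.25, -0.20 and -0.05. Epidermal genes deviated by 0.06, -0.44 and 0.37. Ribosomal protein genes showed small but even shifts of -0.02, -0.19 and 0.20, with 25 of 30 lowest on array 2 and 24 highest on array 3. All named genes above the line deviated by 0.07, -0.16 and 0.09, so array 2 was lower for these genes on average. Of these 6029 genes, 2648 were lowest on array 2 and 2340 highest on array 3. Over all probe sets the median was highest on array 2, at 1.668, against 1.590 on array 1 and 1.615 on array 3. The upper quartile was lowest there, at 3.594, against 3.886 and 3.879. A further quantile normalization of the 3 arrays, tried after the data were seen, brought the deviation of all genes on array 2 to -0.03; the muscle, plasmatocyte and synaptic lists kept their lowest or highest array, with 16, 24 and 12 genes again. How far such shifts enter the spread of a single gene was not tested.

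**Figure D3:**
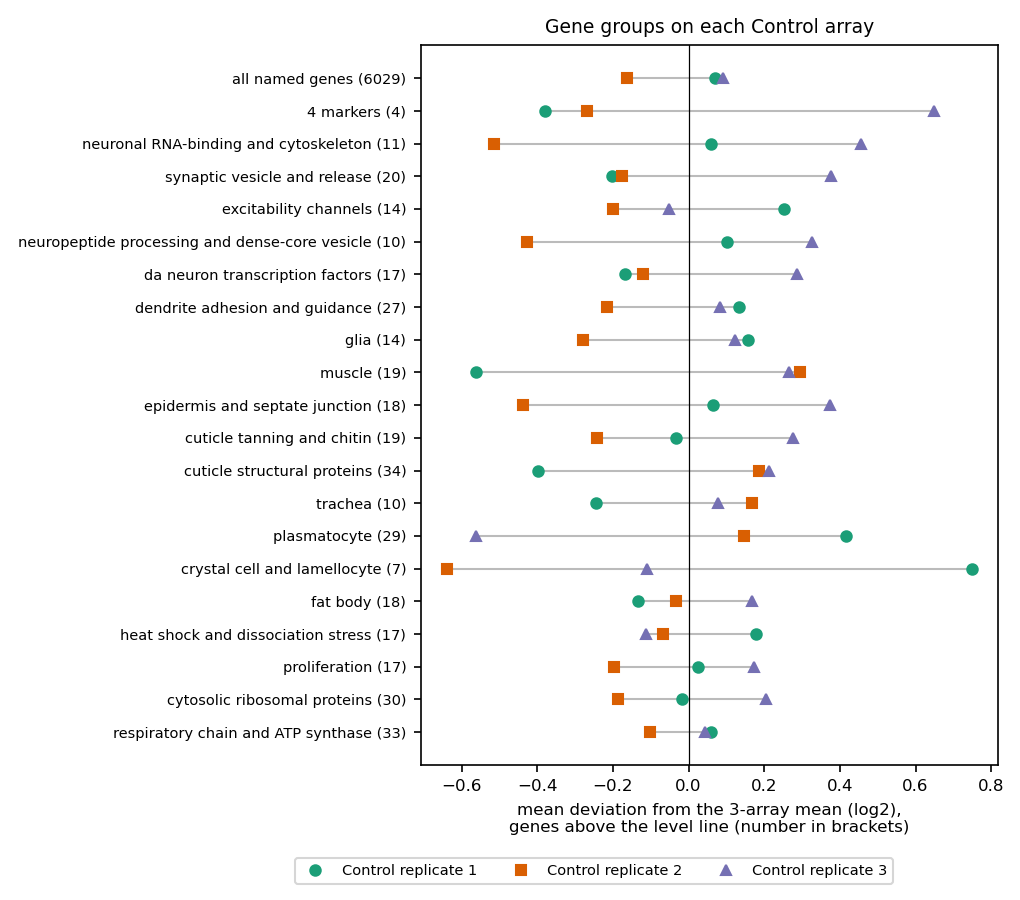
Mean deviation (x axis, log2) of the genes of each list from their own 3-array mean on each Control array; the number of genes above the level line is in brackets, and grey bars join the lowest and highest array. Muscle and cuticle proteins are lowest on array 1 (-0.56 and -0.40), plasmatocyte genes lowest on array 3 (-0.56), and the 2 lists of synaptic and of neuronal RNA-binding and cytoskeletal genes highest on array 3 (0.38 and 0.45).

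Spread among replicates depended strongly on level. A spread of at least 2 was found in 1063 of the 11982 named genes (8.87%), and in 981 of the 6029 above the line (16.3%). Since the line applies to the mean, the 981 include genes with signal above it on a single array. Between any pair of arrays fewer genes were that far apart: 492 on arrays 2 and 3, 389 on arrays 1 and 3 and 572 on arrays 1 and 2. It was rare near background, where 1.91% of genes with means of 1 to 2 had it, and peaked at 25.8% for means of 3 to 4. Above that it declined, to 11.2% for means of 5 to 6 and 3.01% for means of 7 to 8, and none of the 85 genes with means of 9 to 10 or of the 74 with higher means had it. The median spread followed the same course, 0.31 for means under 1, 1.36 for means of 3 to 4 and 0.46 for means of 10 or more. At the steady end, Tctp, a translationally controlled tumour protein homologue, was at 10.87, 10.88 and 10.87, and 270 genes above the line had a spread under 0.25.

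**Figure D4:**
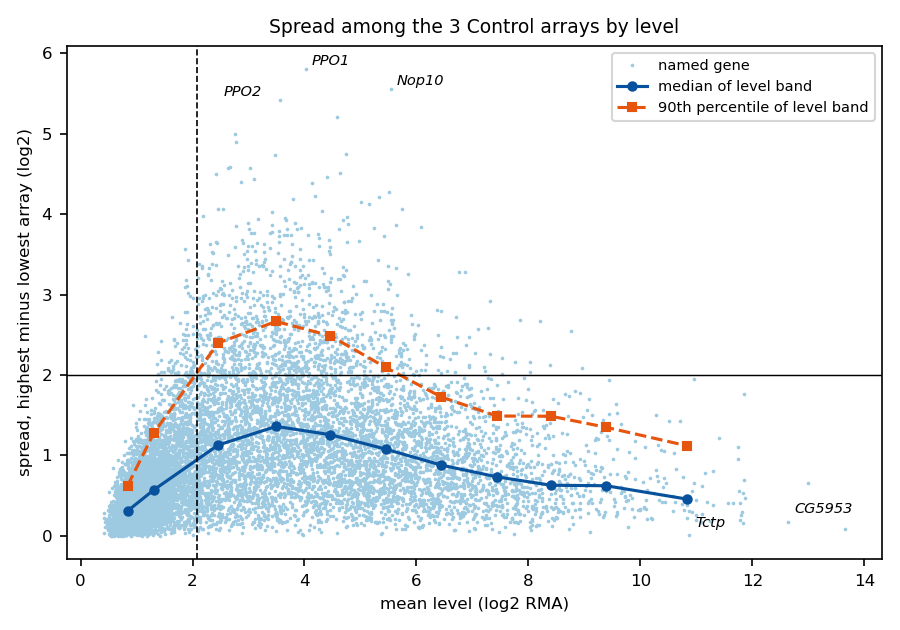
Spread (y axis, highest minus lowest Control array, log2) against mean level (x axis, log2 RMA) for the 11982 named genes. Lines give the median and the 90th percentile in each level band, the dashed line the level line and the horizontal line a spread of 2. The median peaks at 1.36 for means of 3 to 4 and is 0.46 for means of 10 or more.

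The 25 genes with the largest spread above the line ran from PPO1, with a spread of 5.81, to CG15927, with 4.06. The next gene, D12, also had 4.06. Because the line applies to the mean, a gene near background on all arrays but 1 could enter through that array. PPO2, CG42458, CG15343, MtnB, Cpr66Cb, CG15927, Cad74A, Cpr49Ag and CG31176 entered in this way. Genes of the 25 with signal on array 1 far above the other arrays included PPO2, CG42458 (6.04, 1.21 and 1.04), CG15343 (6.44, 2.28 and 1.70), the metallothionein MtnB (5.78, 2.07 and 1.21) and Cpr66Cb. In these genes arrays 2 and 3 were close to each other. A second group was low on array 2 alone. It included Nop10, a small nucleolar RNP protein, at 6.60, 2.23 and 7.78, the COP9 signalosome subunit CSN5 at 5.39, 1.69 and 6.15, the GTPase Rab35 at 4.81, 0.38 and 4.13, and the ephrin receptor Eph at 6.63, 2.51 and 6.32. Obp44a, of the odorant-binding protein family, was in this group too at 5.53, 1.94 and 6.45. Array 3 alone was high for the cadherin gene Cad74A, at 1.03, 1.37 and 5.62, and for Cpr49Ag, and array 2 alone for CG31176, at 1.05, 5.94 and 1.33. In fs(2)ltoPP43, at 5.06, 6.93 and 1.72, array 3 was the low one, and CG10467 had 3 separate values, 7.15, 4.68 and 2.40.

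Array 2 was the odd array most often. The odd array of a gene was the highest or lowest one, whichever lay farther from the middle array. Every gene thus has an odd array, also where its 3 values are well apart. The line applies to the mean, so the counts below include genes that passed it through a single high array. Among the 981 genes with a spread of at least 2 above the line, array 2 was the low one in 312 (31.8%). Array 1 was the high one in 187 (19.1%) and array 3 the high one in 156 (15.9%). Over all 6029 genes above the line these patterns held 24.5%, 17.4% and 18.7%, so a low array 2 was the most common there too. Of the 100 genes with the largest spread, 43 were low on array 2 and 22 high on array 1. With the further quantile normalization the low array 2 accounted for 236 of 935 such genes (25.2%), still the most common pattern. Neither hybridization dates nor scanner output was used here, and whether array 2 differs by sample or by hybridization was not tested.

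**Figure D5:**
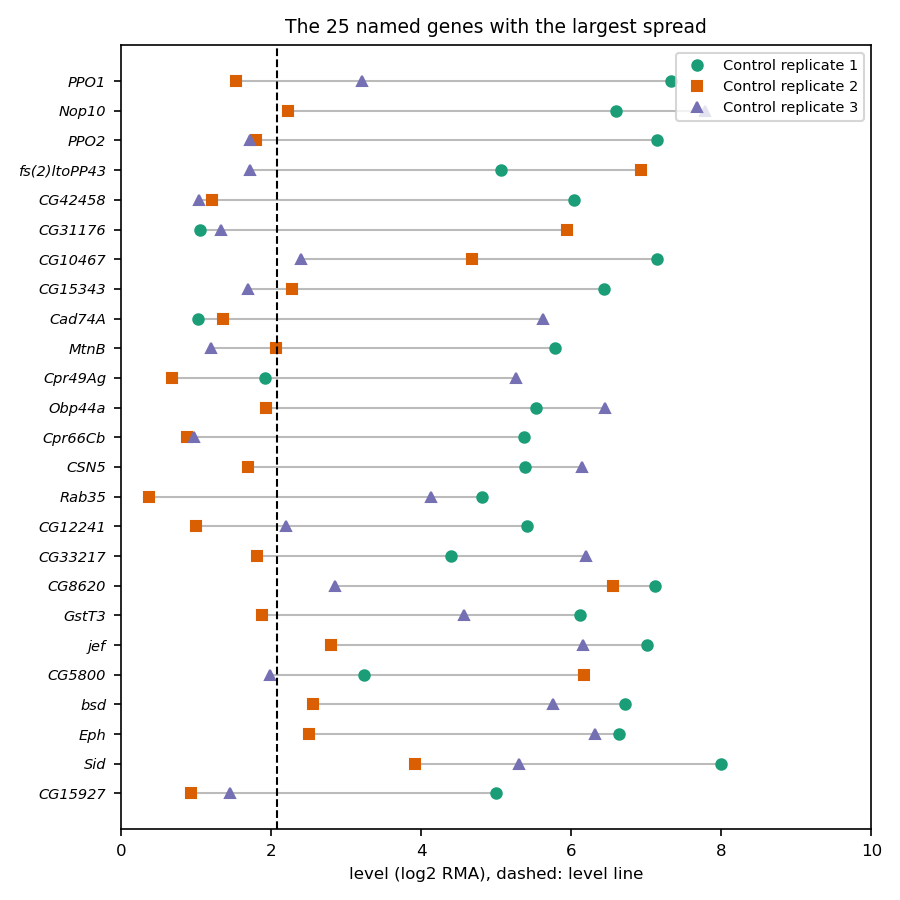
Levels (x axis, log2 RMA) on each Control array for the 25 named genes above the level line with the largest spread, in order of spread from PPO1 (5.81) to CG15927 (4.06). The dashed line is the level line at 2.09. Isolated values on the right are mostly from array 1, and isolated values on the left mostly from array 2.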

How the data were processed

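The log2 values were made by the authors with RMA before they were deposited, per the submitters' processing notes, as 1 table for 9 arrays. Base 2 was inferred from their range. The sources used here do not give the RMA version, the log base or which arrays were normalized together. Only the 3 Control columns were used, except for the alternative that chose probe sets over all 9 arrays.

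Of 18952 probe sets, 183 controls were left out. Platform annotation gave 1 symbol to 13647, several to 402 and none to 4720; 13544 were brought to current symbols with a RefSeq gene table (Release 6 plus ISO1 MT), used for names only. Where a gene had several probe sets (1094 genes), the brightest in Control stood for it. In 424 of these, dlg1, caps and Dscam2 among them, the brightest lay above the level line and the dimmest did not. No coordinates are given, since the annotation names no build, and no promoter or protein sequences were used here, so a planned description of sequence features was not made.

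Means, standard deviations and spreads were computed with Python 3.11.15, numpy 2.4.6 and pandas 2.3.3, and the scripts were tested on simulated data. No test was made, because the design of this description has a single group; the number of arrays limits the precision. Of 842 listed symbols, 623 were measured. The rule for naming genes took in the 25 highest and the 25 most variable genes. Of each list it took up to 6 highest, 6 lowest and 4 most variable members. Not all of these genes are named in the text. The genes, lists and rules were chosen with earlier results of these data known, and the gene families of the closing observations after seeing these values.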

Additional observations from a re-analysis of the deposited data

How the results depend on the processing

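The alternatives changed the scale of the arrays, the probe set of a gene, the level line, the minimum spread or the replicates. The number of named genes above the line stayed within 1.5 times the reported one in all 10 alternatives, as did 243 counts for lists, with 7 exceptions. Median levels of lists moved by more than the spread between replicates in 19 cases and did not in 156, and list counts with a spread of at least 2 moved by more than 1.5 times in 71 cases and did not in 154. The mean of ppk was 1.81, below the line, without replicate 3. Without each replicate in turn, genes with a spread of at least 2 numbered 389 to 571, since fewer arrays span less (the brightest probe set was chosen anew each time). With all 3 arrays kept, 4050 genes had a spread of at least 1. The 100 most variable genes shared 29 to 59 with those found without a replicate (29 without replicate 2). Nociceptor and mechanosensory channels above the line numbered 3 without replicate 3 (leave-one-out range 3 to 7) and 11 with a line from odorant receptors alone (1.33). No paired analysis was possible because a single group is described. Scanner output was not used, so signal over background is unknown.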

Other observations

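Gene families outside the marker lists, chosen after the values were seen, were also set against the level line. Chemosensory receptors were near background throughout: 1 of 56 odorant receptors, which helped to set the line, 0 of 56 gustatory receptors and 1 of 53 ionotropic receptors had means above it. The pickpocket family had 3 of 28 above the line, ppk26, ppk and ppk8, the last at 3.35, 1.45 and 1.65. Of 9 nicotinic acetylcholine receptor subunits 2 were above it, nAChRbeta3 at 5.92, 4.91 and 4.34 and nAChRalpha4 at 2.80, 3.33 and 3.88. Among surface proteins of synaptic recognition, 5 of 20 dpr genes, 1 of 10 DIP genes and 2 of 13 beat genes were above the line, with dpr8 at 4.94, 3.39 and 5.86, DIP-alpha at 2.67, 3.77 and 5.22 and beat-IIIc at 5.08, 2.66 and 5.56.

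Some families held a few strong members among many near background. The odorant-binding protein gene Obp56d was at 8.59, 10.12 and 10.03 while 8 of 47 family members were above the line. The cytochrome P450 gene Cyp4p2 was at 8.71, 9.53 and 9.40 with 22 of 81 above it, and the methuselah-like receptor gene mthl2 at 9.87, 9.08 and 7.32 with 5 of 14. Of these, mthl2 was lowest on array 3, and Obp56d and Cyp4p2 were lowest on array 1. Above the line were 66 of 69 mitochondrial ribosomal proteins, 22 of 34 glutathione S-transferases and 15 of 27 vacuolar ATPase subunits, against 50.3% of all named genes. The share of the vacuolar ATPase subunits, 55.6%, was near it. Of 18 genes whose symbols begin with Rab 14 were above the line, among them Rab3GAP1, which is not itself a Rab GTPase. Of 5122 probe sets with no single gene symbol, 1303 were above the line.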
